A study of Mus musculus with 4 samples.

Results

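The genes described here carry and regulate sodium reabsorption in the distal nephron of the mouse kidney. They are 10 of the 31053 genes counted, matched by symbol, and all 10 were found: the thiazide-sensitive sodium-chloride cotransporter Slc12a3 (NCC), the kinases Wnk1, Wnk4 and Stk39 (SPAK), the ubiquitin ligase adaptor Klhl3, the epithelial sodium channel (ENaC) subunits Scnn1a, Scnn1b and Scnn1g, the kinase Sgk1 and the ubiquitin ligase Nedd4l. Kidneys came from C57BL/6 mice aged 10 weeks with no genetic change named, and each library pooled kidneys of males and females. Mice received 10 µg of recombinant human FGF23, a phosphate-regulating hormone, by intraperitoneal injection, and dissociated cells were profiled with droplet 3′ single-cell RNA sequencing after 1, 4 or 12 h. The baseline library is labelled 0 h with a dose of 0 µg, but the name of its deposited matrix speaks of saline for 1 h, so it is not settled whether these mice were injected. There were 4 libraries, 1 per time. No difference below therefore has a replicate check, no test was possible, and every interval is a 95% interval that covers counting error only. No library with a dose of 0 µg is labelled 4 or 12 h. Effects of FGF23 and of time since injection can therefore not be told apart at those times.

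In the distal convoluted tubule (DCT), sodium enters through NCC. WNK kinases activate SPAK, which phosphorylates NCC, and Klhl3 with cullin 3 marks WNK kinases for degradation. In the connecting tubule (CNT) and the principal cells (PC) of the collecting duct, sodium enters through ENaC, whose removal from the membrane by Nedd4l is held back by Sgk1, a target of aldosterone and glucocorticoids. FGF23 acts on tubule cells through FGF receptors and Klotho.

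Cells were grouped by clustering without the 10 genes and named from other markers. In order of time (0, 1, 4 and 12 h), which holds for every list of 4 values below, the DCT-like class held 320, 278, 331 and 260 cells, the CNT-like class 97, 134, 172 and 151 and the PC-like class 66, 56, 115 and 83. A shallow cluster of 71, 58, 131 and 180 cells carried both DCT and CNT markers, Calb1 and Pvalb among them, and was kept apart without a name. The libraries held 139675666 to 158838728 UMIs (unique transcript counts) in 12245 to 13813 barcodes, and pairs of libraries shared 36 to 57 barcodes. Levels are UMIs per 1000000 UMIs of a class in a library (CPM). A few cells carried markers of other types: the 8 stromal markers summed to 2.11, 374, 0.479 and 0.611 CPM in DCT-like cells, and the 6 neutrophil markers to 380.3, 6.84, 0.710 and 1.78 CPM in CNT-like cells. Leaving out the 2 DCT-like, 2 CNT-like and 3 PC-like cells with 20 or more such UMIs changed no count of members given below. The 8 endothelial markers summed to 128, 126, 121 and 27.3 CPM in PC-like cells, and the 8 macrophage markers to 10.9, 20.04, 90.8 and 3.56 CPM in CNT-like cells. Leaving out cells with 20 or more UMIs of either of these lists, which in the PC-like class were 2, 2, 5 and 0 cells, also changed no count of members. The median mitochondrial share of DCT-like cells was 34.9%, 35.3%, 28.2% and 31.0%.

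Across cell classes the genes fell into distinct patterns. Slc12a3 was highest in DCT-like cells, followed by CNT-like cells and, at similar levels, the unnamed cluster. Scnn1b and Scnn1g were highest in PC-like and then CNT-like cells, while Scnn1a, Wnk4, Stk39 and Nedd4l were spread over all distal classes. Sgk1 was highest in endothelial-like cells.

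**Figure D1:**
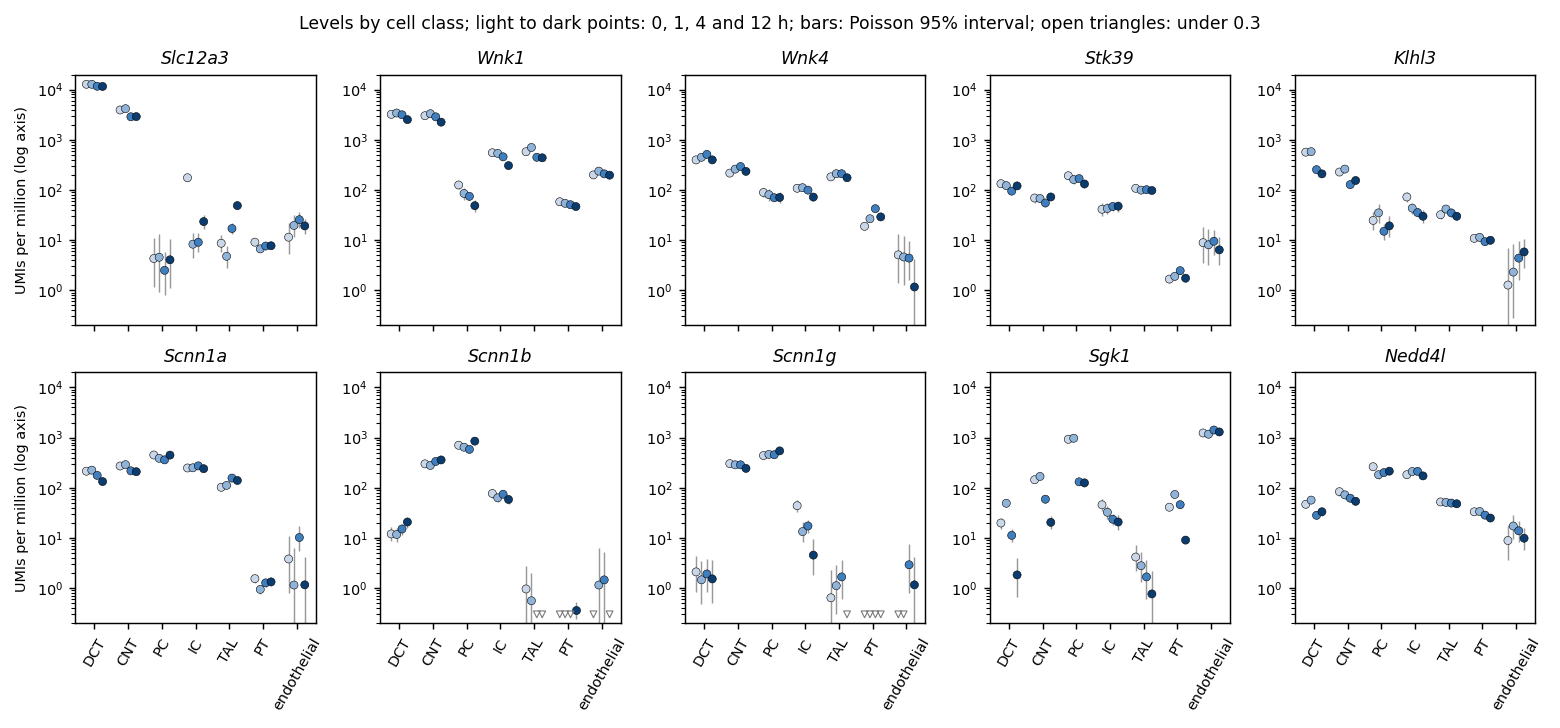
Level of each gene (CPM, log axis) in 7 cell classes, with points for 0, 1, 4 and 12 h from light to dark and Poisson 95% intervals as bars; open triangles mark values under 0.3. Slc12a3 lies between 11569 and 12791 in DCT-like cells, and Sgk1 is lower at the later times in PC-like and CNT-like cells but not in endothelial-like cells.

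The transporter itself hardly differed between the libraries in DCT-like cells. Slc12a3 stood at 12791, 12772, 11676 and 11569 CPM, and every DCT-like cell held a UMI of it. The log2 ratios to 0 h were -0.00 (-0.02 to 0.02), -0.13 (-0.15 to -0.11) and -0.14 (-0.16 to -0.12). The 2 later libraries lay below the 2 earlier ones by more than counting error, but far short of 1.5-fold, the size of difference used for calls below. Medians over single cells had the same order apart from the first pair, at 12387, 12489.6, 11719 and 11564 CPM. By the sex called from Xist and Y-linked genes, female-called cells were at 12742, 12664, 11408 and 11298 CPM and male-called cells at 12936, 13564, 12013 and 11605. In PC-like cells Slc12a3 was at 2.50 to 4.56 CPM, no higher than the 6.69 to 9.09 CPM of proximal tubule (PT-like) cells, which should lack it, so this level is read as background. The median depth was 10235, 10137, 12955 and 10488 UMIs in PC-like and 13049.5, 13945, 12470.5 and 11662 in PT-like cells.

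The gene lies at chr8:94329201-94366214 on the plus strand (GRCm38, GENCODE vM21), and no annotated gene overlaps it. The 250 bases ahead of its RefSeq start (build GRCm38.p6, plus strand, chr8:94328958-94329207) are shown because this gene is the transporter on which the kinases act. Capitals mark a TATAAA match. On either strand, 12.4% of 32851 RefSeq windows of the same length hold these letters, and 3 of the 13 windows of the members do.
Slc12a3: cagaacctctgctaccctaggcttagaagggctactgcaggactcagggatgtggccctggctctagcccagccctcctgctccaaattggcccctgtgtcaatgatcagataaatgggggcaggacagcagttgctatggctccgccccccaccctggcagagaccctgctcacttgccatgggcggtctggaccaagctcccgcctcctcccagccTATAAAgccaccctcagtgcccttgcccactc

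In the CNT-like class, Slc12a3 divided the cells into rich and poor. Its level over the class was 3930.4, 4174, 2876 and 2901 CPM, with log2 ratios of 0.09 (0.04 to 0.14), -0.45 (-0.50 to -0.40) and -0.44 (-0.49 to -0.39). The later ratios were -0.44 and -0.71 in female-called cells but 0.01 and 0.15 in male-called cells. Over the whole class, then, male-called cells did not have the lower level. With only cells under 25% mitochondrial UMIs the later ratios of all cells were -1.30 and -0.92. Cells with 1000 CPM or more, a limit set after the values were seen, made up 40.2%, 40.3%, 37.8% and 37.7% of the class, with exact binomial intervals from 30.0% to 50.7% over the 4 libraries. The intervals overlapped, and only 4, 3, 7 and 5 cells lay within a factor of 2 of the limit. Within the rich cells Slc12a3 stood at 8909, 8904, 7082 and 7344 CPM, lower in the later libraries. These cells were chosen by Slc12a3 itself. The parts of level per cell and of cell mix in the class-wide difference were not tested. Of male-called cells, 25%, 53.6%, 37.8% and 35.4% were rich, or 9 of 36 cells at 0 h. Slc12a3 in these was at 8115 (7668 to 8582), 9437 (9177 to 9703), 6051 (5864 to 6242) and 7353 (7087 to 7627) CPM. The later levels of male-called rich cells were thus below 0 h, although the ratios over the male-called class were not. Other members differed between the sides: at 0 h Wnk1 was at 4718 CPM in rich and 1696 in poor cells, Scnn1b at 129 and 434, and Scnn1g at 113 and 452. Values given for the whole CNT-like class, here and below, are thus averages over unlike cells. Whether the rich cells belong to the late DCT rather than the CNT was not tested.

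Cells with a UMI of Slc12a3 and one of Scnn1b or Scnn1g were common in the CNT-like class, at 45.4%, 44.0%, 42.4% and 43.7%. In DCT-like cells the share was 11.2%, 12.2%, 14.8% and 18.5%, at median depths of 10672, 12115, 12779 and 12338 UMIs. In PC-like cells it was 4.55%, 5.36%, 4.35% and 4.82%, where Slc12a3 itself was at background.

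**Figure D2:**
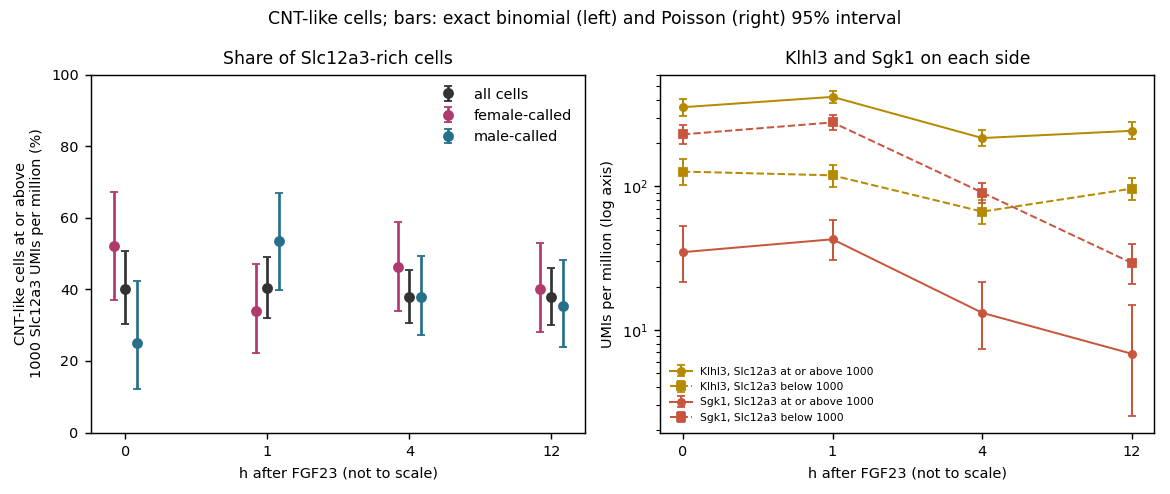
Left, share of CNT-like cells with 1000 or more Slc12a3 CPM at each time, for all cells and by called sex, with exact binomial 95% intervals; right, Klhl3 and Sgk1 levels (CPM, log axis) on each side of that limit, with Poisson 95% intervals. The share over all cells stays between 37.7% and 40.3%, and both genes have lower levels at 4 and 12 h than at 0 h on both sides.

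Within the WNK pathway, the widest difference in DCT-like cells was in Klhl3. In DCT-like cells its level was 567 (542 to 593), 580.3 (555 to 606), 254 (239 to 269.7) and 209 (194 to 226) CPM. It was therefore 2.23-fold lower after 4 h and 2.71-fold lower after 12 h than in the 0 h library, while the intervals of 0 and 1 h overlapped. The log2 ratios were 0.03 (-0.06 to 0.13), -1.16 (-1.27 to -1.05) and -1.44 (-1.57 to -1.31). No cell gave more than 2.83% of the UMIs. The share of DCT-like cells with a Klhl3 UMI was 97.5%, 96.8%, 86.7% and 81.5%, and 65.4%, 65.1%, 39.4% and 36.5% after each cell was thinned to 2000 UMIs, with 2 cells at 0 h and 1 at 4 h too shallow for it. Female-called cells were at 538, 552, 272 and 208 CPM and male-called cells at 601, 643, 243 and 220.3, so the lower level of the later libraries was present in each.

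Klhl3 was also lower in the neighbouring classes. CNT-like cells held 228, 260.5, 128 and 154 CPM, with log2 ratios of -0.83 (-1.06 to -0.61) for 4 h and -0.56 (-0.79 to -0.34) for 12 h. The Slc12a3-rich cells were at 357, 421, 217 and 244 CPM and the Slc12a3-poor cells at 127, 119, 66.8 and 96.5; in the poor cells the intervals of 0 and 12 h overlapped. In female-called CNT-like cells the log2 ratios were -0.84 (-1.17 to -0.52) and -0.82 (-1.14 to -0.50), and in male-called cells -0.23 (-0.63 to 0.18) and 0.17 (-0.23 to 0.59), with only 36 male-called cells at 0 h. The 4 h intervals of the sexes overlapped and the 12 h intervals did not. The Slc12a3-rich cells made up 25%, 53.6%, 37.8% and 35.4% of male-called cells, and their Klhl3 level was 291, 459, 193 and 266 CPM, lowest at 4 h. The 0 h interval there (211 to 390, from 44 UMIs) overlapped those of 4 h (161 to 230) and 12 h (217 to 322). Markers of neighbouring classes were also lower in the later CNT-like libraries: the 8 DCT markers summed to 972, 966, 619.8 and 687 CPM and the 8 TAL markers to 494, 502, 275 and 161. Their part in the Klhl3 result was not tested. The unnamed cluster had 242, 279, 136 and 109 CPM, or ratios of -0.83 and -1.15 for the later times. Thick ascending limb (TAL-like) cells had 32.1, 41.7, 34.9 and 29.9 CPM and PT-like cells 10.8, 11.4, 9.31 and 9.92, with no ratio reaching 1.5-fold.

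The summed DCT markers were also lower in the later DCT-like libraries, mostly through Egf. The 8 markers used for naming, none of them at 0, summed to 3951, 3401, 2519.8 and 2134 CPM. Egf (epidermal growth factor) was at 2409, 1843, 1235 and 853 CPM, already lower at 1 h, and the other 7 summed to 1543, 1558, 1284 and 1281 CPM. Of these 7, Pvalb (the calcium-binding protein parvalbumin) was at 714, 652, 643 and 476 CPM, Emx1 at 271, 321, 98.5 and 189, Sall3 at 119.8, 115, 99.4 and 108, Cnnm2 at 96.9, 115, 70.0 and 69.0 and Slc41a3 at 11.1, 12.3, 8.38 and 3.67. Trpm6, a magnesium channel, was at 155, 142, 133 and 68.1 CPM, and Tfap2b, a transcription factor of the DCT, went the other way at 175, 201, 232 and 368. Their part in the Klhl3 result was not tested.

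Klhl3 lies at chr13:58000228-58113592 on the minus strand, and the only annotated gene overlapping it is the microRNA gene Mir874. The 250 bases ahead of its RefSeq start (GRCm38.p6, minus strand, chr13:58113648-58113897) are shown because its level differed most among the WNK pathway members of DCT-like cells. None of the 3 motifs searched (the TATAAA letters and 2 others given with Sgk1) was found in them, so no letters are in capitals.
Klhl3: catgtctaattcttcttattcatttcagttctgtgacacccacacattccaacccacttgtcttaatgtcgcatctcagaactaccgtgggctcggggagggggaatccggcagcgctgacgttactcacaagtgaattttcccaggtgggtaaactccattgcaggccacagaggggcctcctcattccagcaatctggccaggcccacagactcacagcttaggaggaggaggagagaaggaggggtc

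The WNK kinases on which Klhl3 acts differed less than Klhl3 in DCT-like cells. Wnk1, whose kidney-specific short form is made in the distal tubule and cannot be separated from the long form by 3′ counts, stood at 3214, 3419.8, 3153 and 2525 CPM in DCT-like cells. The 12 h library lay below the other 3, with a log2 ratio of -0.35 (-0.39 to -0.31). In CNT-like cells Wnk1 was at 3021, 3313, 2869 and 2247 CPM, or -0.43 (-0.49 to -0.37) for 12 h. That ratio was alike in female-called (-0.38) and male-called (-0.39) DCT-like cells, whereas in CNT-like cells it was -0.78 and 0.06.

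In PC-like cells Wnk1 was low, at 126, 85.0, 74.5 and 48.6 CPM, with log2 ratios of -0.75 (-1.11 to -0.39) for 4 h and -1.37 (-1.89 to -0.87) for 12 h. A single cell gave 29.1% of the UMIs at 0 h, and without the top cell of each library the levels were 90.7, 80.4, 64.6 and 45.7 CPM, in the same order but with the 4 h difference under 1.5-fold. Intercalated (IC-like) cells had 552, 536, 458 and 306 CPM and TAL-like cells 578, 703, 448 and 438. The gene lies at chr6:119923969-120038672 on the minus strand.

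Wnk4, a WNK kinase that regulates NCC, was highest in the 4 h library in DCT-like and CNT-like cells, but not in every distal class. DCT-like cells held 397, 448, 511 and 397 CPM, log2 ratios of 0.17 (0.07 to 0.28), 0.36 (0.26 to 0.46) and 0.00 (-0.11 to 0.11). CNT-like cells (217, 260.0, 293 and 234 CPM) and the unnamed cluster (160.1, 212, 276 and 226 CPM) had their highest level at the same time. In CNT-like cells the 4 h ratio was -0.05 in female-called and 0.77 in male-called cells.

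PT-like cells, with a lower level of Wnk4, showed the widest contrast: 18.8 (17.9 to 19.8), 26.6 (25.6 to 27.7), 42.4 (41.1 to 43.7) and 29.0 (27.8 to 30.2) CPM. The log2 ratios there were 1.17 (1.09 to 1.25) for 4 h and 0.62 (0.53 to 0.72) for 12 h, and the share of cells with a Wnk4 UMI was 21.7%, 30.7%, 40.1% and 28.9%. The PT-like class pools several clusters, and their mix differed between libraries. A cluster rich in Slc7a13 held 1307, 986, 784 and 507 cells, and another, rich in Ces1g, 227, 242, 389 and 532. The median mitochondrial share of PT-like cells was 22.7%, 22.8%, 16.6% and 22.2%. The part of these shifts in the PT-like levels of Wnk4 and Sgk1 was not tested. PC-like cells did not have that order (89.1, 80.5, 70.0 and 70.9 CPM, with overlapping intervals). Nor did IC-like cells, while in TAL-like cells the values of 1 and 4 h were nearly equal and above those of 0 and 12 h. Without the top cell of each library, IC-like cells had 101.9, 106.9, 97.1 and 68.7 CPM and TAL-like cells 179.9, 208.4, 208.0 and 173.5. An antisense gene, Gm11615, overlaps Wnk4 (chr11:101260567-101277409, plus strand) and had 117 UMIs in all cells together.

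Stk39, which encodes the kinase that links WNK kinases to NCC, was lowest at 4 h in DCT-like cells, at 133, 122, 94.6 and 120.4 CPM. The log2 ratio was -0.49 (-0.69 to -0.30) for 4 h, and the 12 h level could not be told from 0 h at this depth, with a log2 ratio of -0.15 (-0.35 to 0.05) that was -0.65 with only cells under 25% mitochondrial UMIs. Among the classes at 0 h, PC-like cells had 192 (165 to 222) CPM, DCT-like cells 133 (121 to 146), TAL-like cells 108 (96.5 to 119.9), CNT-like cells 69.1 (55.9 to 84.4) and IC-like cells 41.3 (30.1 to 55.2), and the intervals of neighbours in this order did not overlap. PT-like cells had 1.67 to 2.46 CPM. Stk39 lies at chr2:68210445-68472268 on the minus strand.

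At 4 and 12 h Sgk1 differed from 0 h more than any other member in PC-like and CNT-like cells, the ENaC-bearing classes. PC-like cells held 926 (865 to 989.9), 972 (898 to 1050.2), 132 (116 to 148) and 126 (104 to 149.7) CPM. Sgk1 was thus 7.04-fold lower after 4 h and 7.38-fold lower after 12 h. On the log2 scale these ratios were -2.82 (-3.02 to -2.61) and -2.88 (-3.17 to -2.61). The 2 earlier libraries overlapped each other, as did the 2 later ones, and the pairs lay far apart. The top cell gave at most 7.76% of the UMIs, and the share of PC-like cells with a Sgk1 UMI was 90.9%, 96.4%, 60.9% and 51.8%. Female-called cells were at 721, 988, 183 and 173 CPM and male-called cells at 1036, 908, 92.7 and 78.6.

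In CNT-like cells Sgk1 was lower again at 12 h than at 4 h. In female-called cells the 12 h log2 ratio was -2.21 and in male-called cells -3.11. The level over all cells was 145, 169, 59.3 and 20.5 CPM, 7.07-fold lower after 12 h, with log2 ratios of -1.29 (-1.59 to -0.98) and -2.82 (-3.32 to -2.35) for the later times. The Slc12a3-poor cells were at 231, 279, 90.6 and 29.2 CPM and the Slc12a3-rich cells at 34.8, 42.8, 13.1 and 6.81.

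DCT-like cells carried little Sgk1, at 19.9 (15.4 to 25.3), 49.2 (42.0 to 57.2), 11.3 (8.27 to 14.97) and 1.83 (0.673 to 3.99) CPM. The 1 h library was higher, with a log2 ratio of 1.31 (0.89 to 1.74) (2.33 with the 25% limit), and the 4 h library lower, with -0.82 (-1.39 to -0.26). The lower level at 4 h was not past 1.5-fold in female-called cells (-0.16) and was -1.89 in male-called cells. For 12 h only 6 UMIs were counted against 66 at 0 h, a ratio of -3.44 (-4.93 to -2.24) that is under the minimum of 100 UMIs set for calls. PT-like cells were at 41.0, 73.6, 46.1 and 9.06 CPM, also highest at 1 h and lowest at 12 h. IC-like cells had 50, 51, 60 and 32 Sgk1 UMIs. Without the top cell of each library their level was 41.7, 29.8, 22.2 and 19.1 CPM.

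Endothelial-like cells did not share these differences. Their Sgk1 level was 1239, 1169.8, 1419.8 and 1298 CPM, with log2 ratios -0.08 (-0.21 to 0.05), 0.20 (0.08 to 0.31) and 0.07 (-0.04 to 0.18). They came from the same libraries as the PC-like cells. The difference between the classes was not tested.

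**Figure D3:**
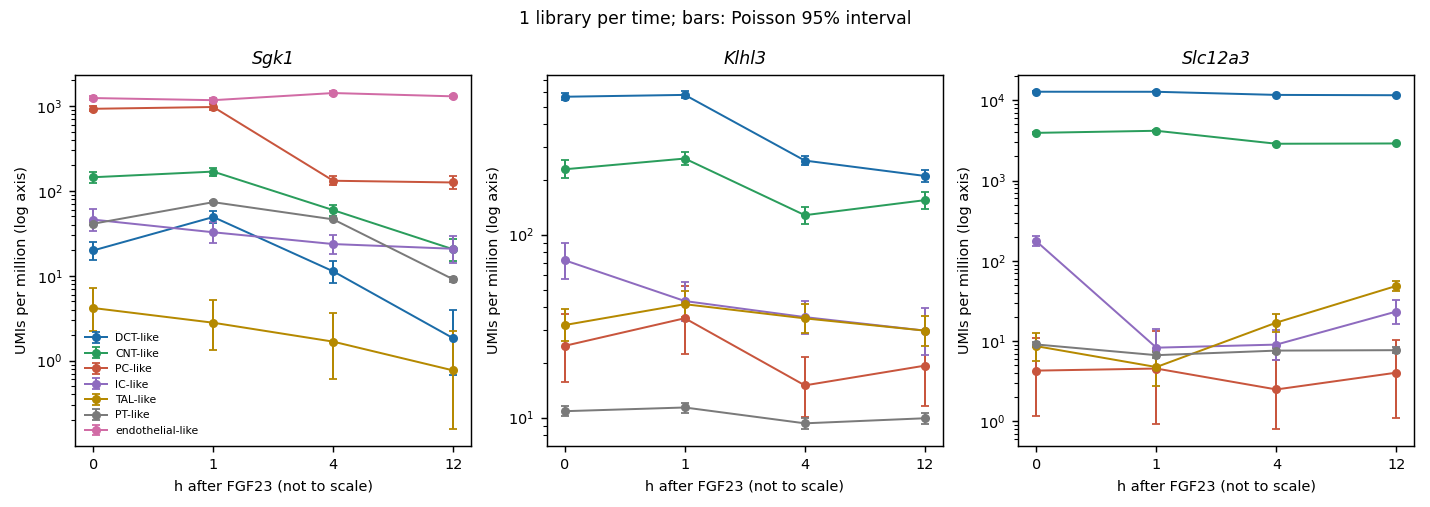
Level (CPM, log axis) of Sgk1, Klhl3 and Slc12a3 at 0, 1, 4 and 12 h by cell class, with Poisson 95% intervals as bars and 1 library per time (the time axis is not to scale). Sgk1 in PC-like cells goes from 926 to 126 while endothelial-like cells stay between 1169.8 and 1419.8.

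Sgk1 lies at chr10:21882184-21999903 on the plus strand and has 6 starts among the RefSeq windows. One window holds the palindrome AGAACA, 3 bases of any kind, then TGTTCT, a form of the element bound by glucocorticoid and mineralocorticoid receptors, and is shown for that reason; its first base lies 189 bases before the start. On either strand, 3 of 32851 windows (0.00913%) hold these letters. The other window shown is that of the start farthest downstream and has a TATAAA match. Both are on the plus strand of GRCm38.p6, at chr10:21993640-21993889 and chr10:21994416-21994665, with the matches in capitals. The letters describe the sequence only, and 3′ counts do not say which start was used.
Sgk1, start with palindrome: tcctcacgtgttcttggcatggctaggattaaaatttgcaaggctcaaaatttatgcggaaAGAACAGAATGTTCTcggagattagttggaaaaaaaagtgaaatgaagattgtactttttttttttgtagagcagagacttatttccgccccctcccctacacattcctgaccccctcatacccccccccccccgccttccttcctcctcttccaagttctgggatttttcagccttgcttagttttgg
Sgk1, farthest downstream start: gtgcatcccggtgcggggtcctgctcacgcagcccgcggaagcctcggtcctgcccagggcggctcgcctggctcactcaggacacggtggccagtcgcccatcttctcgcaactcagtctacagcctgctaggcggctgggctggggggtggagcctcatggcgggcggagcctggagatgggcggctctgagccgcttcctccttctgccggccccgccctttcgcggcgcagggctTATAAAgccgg
The third motif searched, GTAAACA, a FoxO site, is held by 3.17% of all windows and by 0 of the 13 windows of the members.

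The channel subunits differed less than Sgk1. Scnn1b, the beta subunit, was at 705 (652 to 761), 645 (585 to 709.8), 583 (550.1 to 618) and 851 (795 to 911) CPM in PC-like cells, where the 12 h library lay above the other 3. The 12 h log2 ratio there was 0.27, with 0.09 in female-called and 0.33 in male-called cells. In CNT-like cells Scnn1b was at 300.3, 279, 335 and 359 CPM. Scnn1g, the gamma subunit, was at 439.9, 463, 456 and 545 CPM in PC-like and 303, 287, 287 and 244 in CNT-like cells. Its 12 h level was therefore the highest in one class and the lowest in the other. The log2 ratios over all cells were 0.31 (0.12 to 0.50) and -0.32 (-0.50 to -0.13), both under 1.5-fold. In CNT-like cells that ratio was -0.01 in female-called and -0.71 in male-called cells, so the lower level was not found in the former. In PC-like cells the ratio was 0.45 in female-called and 0.28 in male-called cells. Outside these classes Scnn1g was at 1.46 to 2.11 CPM in DCT-like and 0.152 to 0.201 in PT-like cells. Without the top cell of each library, it was at 35.5, 7.12, 13.5 and 2.65 CPM in IC-like cells. In the unnamed cluster it was at 14.3, 3.59, 37.8 and 14.3 CPM on that basis. It lies at chr7:121734479-121768475 on the plus strand.

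Scnn1b in DCT-like cells was low, at 12.0, 11.7, 15.1 and 20.8 CPM from 40, 40, 63 and 68 UMIs. The log2 ratio for 12 h was 0.79 (0.20 to 1.39), with 0.48 in female-called and 1.30 in male-called cells, and 1.85 with the 25% mitochondrial limit. Scnn1b (chr7:121865038-121918514, plus strand) overlaps Cog7 on the opposite strand. Whether counting used strand is not given in the sources used here, so reads of the overlap may not be told apart; Cog7 had 11268 UMIs over all cells, and Scnn1b was at 0.103 to 0.369 CPM in PT-like cells.

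Scnn1a, the alpha subunit, was found in more cell types. DCT-like cells held 214, 225, 177 and 133 CPM, a log2 ratio of -0.69 (-0.86 to -0.51) for 12 h, which was -0.21 when only cells under 25% mitochondrial UMIs were used and -0.55 in male-called cells. CNT-like cells were at 272, 289.8, 218 and 209 CPM, PC-like cells at 451, 387, 361 and 448 and IC-like cells at 248, 251, 274 and 240.4. TAL-like cells went the other way, at 102, 112, 156 and 140.0 CPM, or 0.61 (0.41 to 0.81) for 4 h. UMIs of all 3 subunits were found together in 90.9%, 91.1%, 96.5% and 96.4% of PC-like cells and in 75.3%, 78.4%, 82.0% and 68.9% of CNT-like cells.

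Nedd4l was highest in PC-like cells at 0 h, at 263, 182, 201 and 215 CPM, and IC-like cells had 182, 211, 213 and 173 CPM. At 1, 4 and 12 h the intervals of these classes overlapped. DCT-like cells held 46.9, 56.8, 28.3 and 33.3 CPM, log2 ratios of -0.73 (-1.09 to -0.38) for 4 h and -0.50 (-0.86 to -0.13) for 12 h. CNT-like cells had 83.6, 72.3, 62.1 and 53.8 CPM, or -0.64 (-1.02 to -0.26) for 12 h. In CNT-like cells female-called cells had a 4 h ratio of 0.10 (-0.46 to 0.67), and male-called cells one of -0.82 (-1.32 to -0.31); these intervals overlapped. The 12 h ratio in that class was -0.57 with TMM scaling (trimmed mean of M values), just under 1.5-fold.

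Members were called when their level differed from 0 h by 1.5-fold or more with 100 or more UMIs over both libraries. In DCT-like cells after 1 h, 1 of 8 measured members was called (Sgk1, higher), against 5.51% of all 6193 genes measured, 3.29% higher and 2.21% lower. After 4 h 3 of 9 were called, all lower (Klhl3, Sgk1 and Nedd4l), against 17.5% of 6574 genes, 10.1% higher and 7.38% lower. After 12 h 3 of 8 were called (Klhl3 and Scnn1a lower, Scnn1b higher), against 12.5% of 6218 genes, 7.09% higher and 5.44% lower. The median log2 ratio of the measured members was 0.08, -0.28 and -0.25 in order of time, beside -0.02, 0.03 and 0.02 over all measured genes.

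In CNT-like cells all 10 members were measured. None was called after 1 h, where 2.43% of all genes were, 1.38% higher and 1.05% lower. After 4 h Klhl3 and Sgk1 were lower, 2 of 10, against 10.7% of all genes, 5.47% higher and 5.26% lower. After 12 h Sgk1 and Nedd4l were lower, 2 of 10, against 7.01%, 3.03% higher and 3.97% lower. The medians were 0.09, -0.32 and -0.40 for the members and -0.00, 0.02 and -0.01 for all genes.

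In PC-like cells 8 members were measured and none was called after 1 h, where 3.63% of all genes were, 1.25% higher and 2.39% lower. Wnk1 and Sgk1 were lower at both later times, 2 of 8, against 10.5% of all genes for 4 h (6.86% higher and 3.65% lower) and 7.41% for 12 h (2.51% higher and 4.9% lower). The medians were -0.18, -0.33 and -0.31 for the members and -0.00, 0.05 and -0.01 for all genes. The comparisons of a class share its 0 h library, and nothing particular to the 10 genes is read from these shares.

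**Figure D4:**
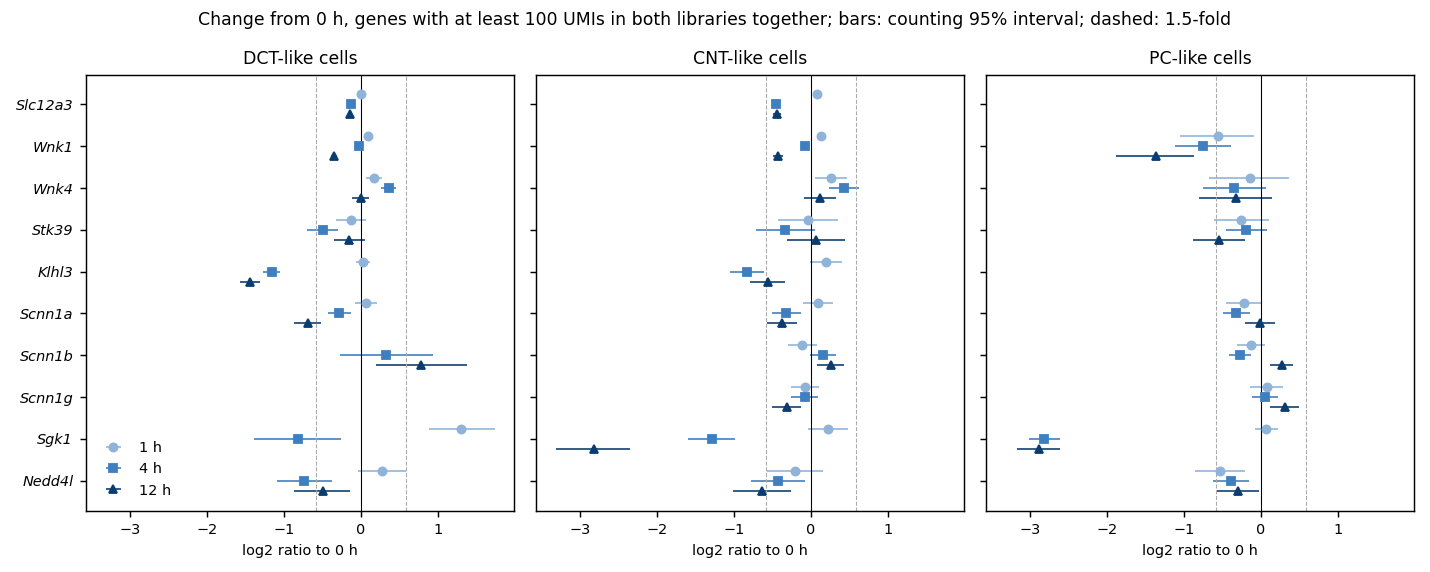
Log2 ratio to 0 h at 1 h (circles), 4 h (squares) and 12 h (triangles) for each gene with 100 or more UMIs over both libraries, in DCT-like, CNT-like and PC-like cells, with counting 95% intervals; dashed lines mark 1.5-fold. Sgk1 in PC-like cells at -2.82 and -2.88 and Klhl3 in DCT-like cells at -1.16 and -1.44 lie well to the left, and Slc12a3 in DCT-like cells lies close to 0.

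The wider pathway was read from 36 further genes. Among steroid receptors and their targets, directions differed between genes within DCT-like cells. Per1, a clock gene induced by glucocorticoids, was at 14.4, 41.0, 17.5 and 4.58 CPM, 2.84-fold higher after 1 h. Fkbp5, a glucocorticoid target, was at 49.1, 65.9, 141 and 72.4 CPM, a log2 ratio of 1.52 (1.27 to 1.78) for 4 h. Tsc22d3 (GILZ), another such target, was lower at every later time, at 28.0, 12.9, 16.3 and 12.8 CPM. Nr3c2, the mineralocorticoid receptor, was at 23.5, 22.0, 11.5 and 16.2 CPM, or -1.03 (-1.58 to -0.49) for 4 h. After 4 h, Sgk1, Tsc22d3 and Nr3c2 were thus lower in DCT-like cells while Fkbp5 was higher. Nr3c2 was likewise lower in PC-like cells (91.2, 80.5, 55.5 and 66.8 CPM, -0.72 for 4 h). In CNT-like cells Hsd11b2, which inactivates glucocorticoids, was at 1867, 1490.2, 1039 and 1285 CPM, or -0.85 (-0.92 to -0.77) for 4 h.

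Among transporters and channels, Bsnd, the chloride channel subunit barttin, was at 101, 79.6, 39.8 and 66.3 CPM in DCT-like cells, or -1.34 (-1.62 to -1.06) for 4 h and -0.60 for 12 h. Kcnj10, a basolateral potassium channel of the DCT, was higher after 4 h in DCT-like (214, 267, 321 and 278 CPM) and CNT-like cells (179.6, 242, 270.0 and 253 CPM). Slc12a1, the cotransporter of the thick ascending limb, was at 28.6, 25.5, 56.5 and 29.0 CPM in DCT-like cells, where the 8 TAL markers summed to 3470.3, 3345, 3827 and 2169 CPM. Fxyd2, a subunit of the sodium pump, was at 3709, 4219.8, 5824 and 4471 CPM in CNT-like cells, higher after 4 h, and at 188, 86.6, 87.0 and 152 in PC-like cells, lower after 1 and 4 h.

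Among ligase and kinase genes, Klhl2, a close relative of Klhl3, was at 21.1, 16.1, 33.5 and 28.1 CPM in DCT-like cells, or 0.67 (0.25 to 1.11) for 4 h, opposite to Klhl3. Cul3, the scaffold with which Klhl3 works, was at 95.4, 113, 127 and 109 CPM and was not called. Cab39l, a relative of the SPAK activator Cab39, was lower after 4 h in DCT-like (-0.64) and PC-like cells (-0.66), and Cab39 was lower after 1 h in PC-like cells (-0.59). Sgk3, a relative of Sgk1, was lower after 1 h in DCT-like cells (-0.65), and Rictor, a subunit of the complex that activates Sgk1, was lower after 12 h (-0.74). Over the 36 genes, the counts after 1, 4 and 12 h were 1 higher and 2 lower of 30, 4 higher and 4 lower of 30 and 0 higher and 3 lower of 29 in DCT-like cells. Over all genes 5.51%, 17.5% and 12.5% were called there. The counts were 0 higher and 0 lower of 23, 2 higher and 1 lower of 23 and 0 higher and 0 lower of 22 in CNT-like cells, against 2.43%, 10.7% and 7.01% of all genes. They were 0 higher and 2 lower of 17, 0 higher and 3 lower of 22 and 0 higher and 0 lower of 19 in PC-like cells, against 3.63%, 10.5% and 7.41%.

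The called sex of the cells was not even between libraries. Female-called cells made up 69.1%, 60.8%, 52.9% and 51.1% of sexed DCT-like cells and 36.1%, 51.0%, 49.0% and 51.4% of sexed PC-like cells. Of sexed CNT-like cells 46, 62, 67 and 65 were female-called and 36, 56, 82 and 65 male-called. The lower Klhl3 in DCT-like cells and the lower Sgk1 in PC-like cells were present on each side. The number of mice pooled is not given, so the sexes are not replicates.

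**Figure D5:**
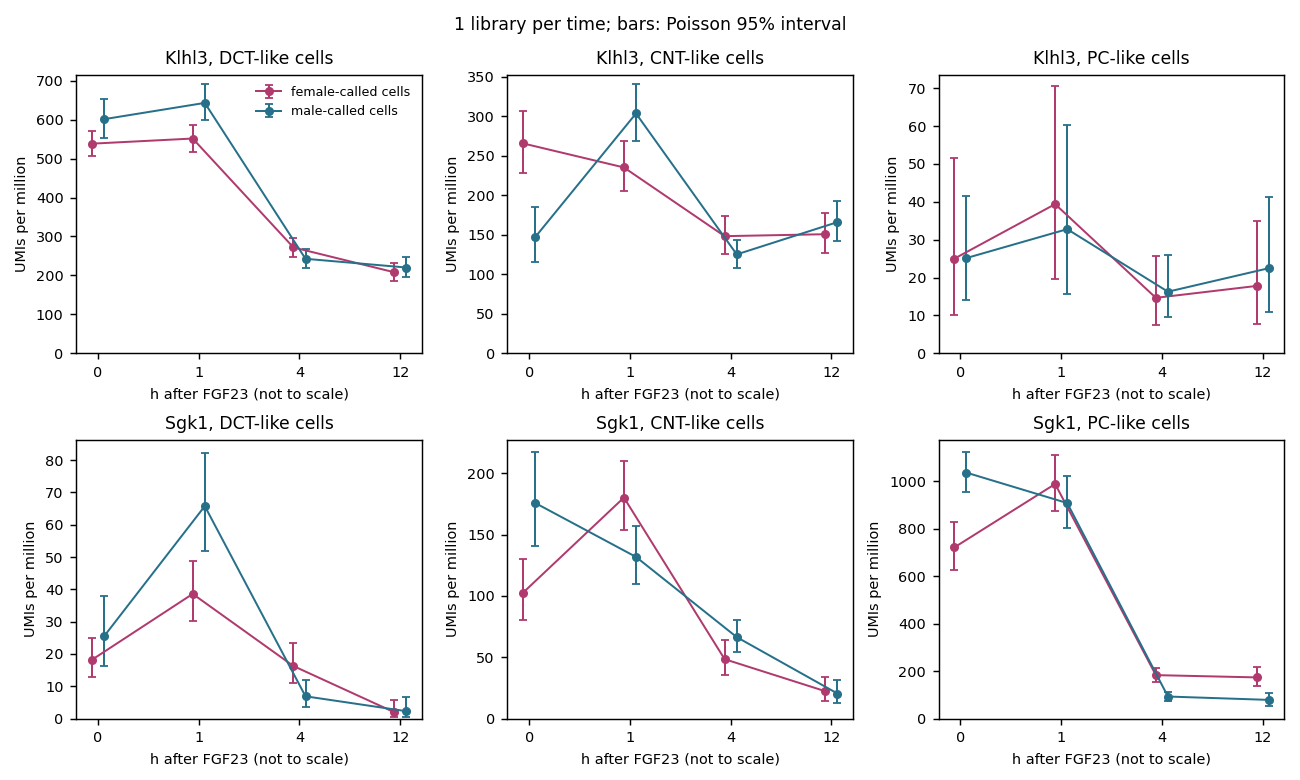
Klhl3 (top) and Sgk1 (bottom) levels (CPM) in female-called and male-called cells of the DCT-like, CNT-like and PC-like classes at 0, 1, 4 and 12 h, with Poisson 95% intervals and 1 library per time (the time axis is not to scale). Klhl3 in DCT-like cells goes from 538 to 208 in female-called and from 601 to 220.3 in male-called cells, while male-called CNT-like cells start at 147 and reach 304 at 1 h.

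Likeness between genes was measured as Pearson's r of log2(CPM + 1) over 44 points, 11 classes in 4 libraries, which share libraries and depth. Closest to Slc12a3 were Lrrc52 (0.92), Trpm6 (0.92) and Vegfd (0.92), closest to Wnk1 Cwh43 (0.94), Sall3 (0.93) and Abca13 (0.91), and closest to Klhl3 Acss3 (0.93), Cnnm2 (0.92) and Sall3 (0.91). Stk39 was closest to Mboat1 (0.89), Slc35g1 (0.87) and Tesc (0.87). Scnn1b was closest to Rab15 (0.96), Scnn1g (0.95) and Ptges (0.95), and Scnn1g to A930017K11Rik (0.97), Hsd11b2 (0.96) and Ptges (0.95). Scnn1a was closest to Nudt4 (0.95), Tmc4 (0.94) and Gca (0.94), and Nedd4l to Naaladl2 (0.91), Pts (0.90) and Arhgef38 (0.90). Sgk1 had no gene as near as the others did, with Arf1 (0.80), Ednrb (0.80) and Id1 (0.79) first. Among the members, r of Slc12a3 was 0.89 with Wnk1, 0.78 with Klhl3, -0.24 with Sgk1 and -0.02 with Nedd4l.

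Some differences in other classes came in part from single cells. In IC-like cells Slc12a3 was at 175, 8.29, 9.05 and 23.4 CPM, but 1 cell gave 75.9% of the UMIs at 0 h, and without the top cell of each library the levels were 43.3, 3.24, 5.15 and 3.29 CPM. In TAL-like cells it was at 8.66, 4.75, 17.0 and 48.8 CPM, with 72.8% of the 12 h UMIs from 1 cell, and at 7.71, 4.20, 7.28 and 13.3 without the top cells. Klhl3 in IC-like cells was at 72.4, 43.4, 35.4 and 29.9 CPM and at 58.3, 40.2, 34.6 and 27.1 without them, so its order in time did not rest on those cells.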

How the data were processed

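The authors deposited raw UMI counts per gene and barcode, 1 matrix per library, already limited to selected barcodes. Per the submitters' processing notes, Cell Ranger 3.1.0, STAR and Seurat were used with build mm10; whether counting used strand or introns is not given in the sources used here. The 10 genes and all lists were chosen with earlier results of these data known.

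Barcodes with under 300 genes or over 50% mitochondrial UMIs were left out, which kept 9477 to 11120 per library. Doublets were called from simulated pairs among 30 neighbours at 0.8% per 1000 cells (7.59% to 8.89%) and removed after clustering, leaving 8758 to 10131 cells with medians of 8968 to 11292 UMIs. Cells of all libraries were clustered together (leidenalg 0.10.2, resolution 1.5, 20 neighbours, 30 components) on 2028 genes that left out the 10 members, mitochondrial, ribosomal, sex-linked and early response genes. The 52 clusters were named only where 3 or more markers supported a name, and the others stayed unnamed. Names are rebuilt here and may differ from the study's.

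UMIs were summed per class and library. Levels have exact Poisson 95% intervals, ratios exact conditional binomial intervals and shares exact Clopper-Pearson intervals (SciPy 1.17.1). UMIs of 1 pool of mice are not replicates, so no p-value is given. The text names all 10 members, for each the 3 most alike genes with a mean of 5 CPM or more over classes with 50 or more cells in every library, and up to 4 called genes of the pathway list per class and time by size of change; the remaining pathway genes and markers, the 1000 CPM limit, the 20-UMI limit, the 3 motifs, the windows printed and the classes plotted or scanned for opposite directions were chosen after values were seen. On simulated DCT-like counts of 6537 genes at 4 h, 95.5% of intervals held the true ratio. Of 200 genes changed by 2-fold, 89.5% were called. The simulated counts had only the counting error that the intervals assume. They therefore check the calculation and say nothing about variation between pools of mice or between cells. Positions come from GENCODE vM21 (GRCm38), where 99.6% of gene IDs were found, and promoters from RefSeq (GRCm38.p6), found for 8 of the 10 genes. Alternatives tried were a mitochondrial limit of 25%, doublets kept, each called sex alone, equal weight per cell, TMM scaling (edgeR 4.0.16), totals without mitochondrial genes, Leiden resolution 1, members allowed in clustering, no UMI minimum and a 2-fold limit. The genes closest in pattern to Wnk4 are not reported here.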

Additional observations from a re-analysis of the deposited data

Results flagged for a closer look

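In CNT-like cells after 1 h, Slc12a3 went in opposite directions in the called sexes. It was at 5015 CPM at 0 h and 3215 at 1 h in female-called cells (log2 ratio -0.64), and at 2537 and 5384 CPM in male-called cells (1.09), a difference of -1.73. Slc12a3-rich cells were 24 of 46 female-called and 9 of 36 male-called cells at 0 h, and 21 of 62 and 30 of 56 at 1 h. Sgk1 in DCT-like cells was above its 0 h level after 1 h (1.31) and below it after 4 h (-0.82), 2.13 apart on the log2 scale. In PT-like cells Sgk1 was above after 1 h (0.84) and below after 12 h (-2.18), 3.02 apart. These differences share the 0 h library and were not tested.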

How the results depend on the processing

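No called value of the DCT-like, CNT-like and PC-like classes changed sign under the alternatives run. The alternatives were not run for the ratios of other classes, such as PT-like and TAL-like cells. Klhl3 in DCT-like cells ranged from -1.56 to -0.99 for 4 h and from -1.57 to -1.30 for 12 h, and Sgk1 in PC-like cells from -3.48 to -1.98 and from -3.72 to -2.06. The log2 ratio of Slc12a3 in DCT-like cells left its narrow counting interval under several settings. For 1 h it was -0.0505 with a mitochondrial limit of 25%, 0.0683 in male-called cells, 0.0375 with TMM scaling and 0.0304 with the unnamed cluster joined. For 4 h it was -0.3719 with the 25% limit, -0.1596 in female-called and -0.1068 in male-called cells, -0.112 with cells weighted equally, -0.1012 with TMM, -0.2478 without mitochondrial UMIs and -0.2006 with the cluster joined. For 12 h it was -0.2968 (25% limit), -0.1735 (female-called), -0.1177 (equal weight), -0.1881 (TMM), -0.1785 (without mitochondrial UMIs) and -0.3006 (cluster joined).

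Counts of called members moved too, given here of those measured, with the share of all measured genes called under the same setting in parentheses. In DCT-like cells 0 of 6 (8.65%) were called after 1 h with the 25% limit, 1 of 6 (18.9%) after 4 h and 1 of 6 (16.1%) after 12 h in male-called cells, and 1 of 9 (5.70%) and 1 of 8 (3.49%) at 2-fold. Fewer members reached 100 UMIs in the first 3 of these: Sgk1 after 1 h with the 25% limit (2.33), Sgk1 and Nedd4l in male-called cells after 4 h (-1.89 and -0.92) and Scnn1b there after 12 h (1.30) were past 1.5-fold with fewer UMIs. In CNT-like cells after 1 h 2 of 10 (5.56%) were called in female-called cells, 6 of 10 (8.47%) in male-called cells and 1 of 10 (3.67%) with equal weight. After 4 h there were 4 of 9 (15.7%) with the 25% limit, 4 of 10 (14.8%) in male-called cells and 1 of 10 (1.64%) at 2-fold, and after 12 h 1 of 10 (7.16%) with TMM and 1 of 10 (1.25%) at 2-fold. In PC-like cells after 1 h 1 of 8 (4.21%) was called with doublets kept, 1 of 7 (6.29%) in male-called cells and 1 of 8 (4.17%) with equal weight. After 4 h there were 1 of 6 (12.8%) in female-called cells, 4 of 10 (40.9%) with no UMI minimum and 1 of 8 (2.0%) at 2-fold, and after 12 h 1 of 6 (6.56%) in female-called cells. In PC-like female-called cells Wnk1 was past 1.5-fold (-0.72 and -1.10) under the UMI minimum. The 2-fold limit and the missing UMI minimum change the calls themselves, and for the other moves the cause was not tested.

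Of 76 other log2 ratios of members, 31 left their counting interval with the 25% limit, 32 in female-called and 28 in male-called cells, against 0 to 7 under the remaining settings. The 25% limit left 75, 54, 135 and 71 DCT-like cells. TMM moved the median of all genes in CNT-like cells after 4 h from 0.02 to 0.11. Joining the unnamed cluster, leaving out cells with stromal or neutrophil markers and leaving out those with endothelial or macrophage markers were chosen after seeing the data, and each of the latter 2 moved 0 of the 76. No paired analysis was possible because each time has 1 library. Depth limits Sgk1 in DCT-like cells after 12 h (6 UMIs) and Slc12a3 in PC-like cells (at most 5 UMIs).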

Other observations

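Neutrophil-like cells, named from their own markers, had Scnn1a UMIs without those of the other ENaC subunits. Scnn1a was at 109, 111, 137 and 112 CPM, from 68, 65, 20 and 10 UMIs in 54, 58, 16 and 10 cells, with at most 10.0% of the UMIs from 1 cell. Scnn1b and Scnn1g had 0 UMIs there, which at a limit of 3 counts per library allows up to 4.82 CPM at 0 h and 33.6 at 12 h. The share of cells with a Scnn1a UMI was 15.5%, 18.0%, 20.3% and 17.9%, at median depths of 1656, 1728, 1722 and 1502 UMIs, against 1.92%, 1.34%, 1.60% and 1.66% of PT-like cells at 13049.5, 13945, 12470.5 and 11662 UMIs. Scnn1a lies at chr6:125320659-125344943 on the plus strand, and its nearest protein-coding neighbour, Tnfrsf1a, is 4419 bp away on the same strand.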
